A study of Mus musculus with 68 samples.

Results

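The enzymes that make or break down sphingomyelin and ceramide were followed through the resting, proliferative and hypertrophic zones of the mouse growth plate, the layer of cartilage that lengthens long bones. They are the serine palmitoyltransferase subunits Sptlc1 and Sptlc2, the sphingomyelin synthases Sgms1 and Sgms2, the sphingomyelinases Smpd1, Smpd2 and Smpd3, and the acid ceramidase Asah1, 8 of the 23420 gene symbols in the deposited table. They were listed by name, after earlier results on the same libraries had singled out Sgms2 and Smpd3 as lower in the resting than in the proliferative zone at postnatal day 28. Values of those genes that rest on the same P28 libraries are therefore given as a description, without a test. Tests are given for the other genes, and for Sgms2 and Smpd3 in sections that did not enter that choice.

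Mice of mixed background, with no allele or treatment given in the labels, were taken 2, 3 or 28 days after birth (P2, P3 and P28), and cells of each zone were picked from stained frozen sections by laser capture and read by SMART-seq2. The groups were ethanol-fixed resting, proliferative and hypertrophic zones at P2 and P28, the same zones of 1 ethanol-fixed P3 animal, and the same zones from xylene-fixed P28 sections. Of 51 ethanol libraries of P2 and P28, the 26 with at least 100000 counts were added up by animal and zone, which gave 21 sums. They held 4 animals per zone from 6 animals at P2, and 3 animals per zone at P28. The P2 animals A, D and G and the P28 animals A, B and D had every zone, while P2 animals C, E and F had 1 zone each and did not bear on a zone difference within an animal. Some labels, those of animal D at P2 and of animal B at P28, use a plural and may stand for pools. The xylene sections gave 6 sums from 2 animals, P28 animal D, which also gave ethanol libraries, and P28 animal E.

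Depth ranged from 748 to 3347722 counts per library over all 68 libraries, and from 108601 to 3347722 per ethanol sum. The resting sums at P28 were shallow, at 108601 to 260199 counts. Capture of the zones was checked on marker lists summed as TMM-normalised CPM (counts scaled to a common library size). The 7 prehypertrophic and hypertrophic markers summed to 9431 to 69912 CPM in P2 hypertrophic sums and to 68994 to 111293 in P28 ones, against 674 to 1187 and 2956 to 7360 in proliferative sums. In resting sums they came to 101 to 332 CPM at P2 and to 370 to 8974 at P28, the highest being P28 animal A. The 6 resting markers summed to 735 to 2117 CPM in P2 resting sums and 1689 to 1912 in P28 ones, against 142 to 366 and 475 to 955 in proliferative sums. The 4 markers of proliferating cells did not set resting apart from proliferative sums, as their ranges overlapped. At P2 they summed to 246 to 985 CPM in resting and 40.7 to 567 in proliferative sums. At P28 these were 66.1 to 677 and 158 to 304 CPM, and in xylene sections 412 to 1404 and 300 to 915. Hypertrophic sums held at most 9.49 CPM of them at P2, 24.97 at P28 and 61.2 in xylene sections. Macrophage markers stayed at or under 67.8 CPM, endothelial markers at or under 68.4 CPM and osteoclast markers at or under 90.4 CPM in every sum. Muscle markers reached 332 CPM in a P2 hypertrophic, 103 in a P2 proliferative and 79.9 in a P2 resting sum, and stayed at or under 13.6 at P28. Some libraries stood apart. In P2 animal G the resting library held 128 Xist and 747 Y-linked counts, so that it may hold more than 1 animal. One of the proliferative libraries of P28 animal D held Xist and no Y-linked counts. A library of P2 animal C and another of P28 animal D, both hypertrophic, held 20032 and 13080 counts outside the ribosomal repeat symbols Rn45s and Lars2 and the symbol Glra2. Left out, the last 3 libraries changed no call of a member in the ethanol zone and age comparisons. The libraries fall into 2 deposit sets, by whether their labels carry a coded description: P2 animals A to E and P28 animals A and B in one, and P2 animals F and G, P28 animals C to E and the P3 animal in the other. Values without P2 animal G or without P28 animal D are therefore zone differences at that age within the first set. In such bulk captures, fewer cells of a type and less RNA per cell cannot be told apart.

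Sphingomyelin is the main phosphocholine-bearing sphingolipid of the outer cell membrane. Serine palmitoyltransferase starts sphingolipid synthesis in the endoplasmic reticulum and leads to ceramide, onto which a sphingomyelin synthase places the phosphocholine head of phosphatidylcholine. A sphingomyelinase cuts the head off again, giving ceramide and phosphocholine, and a ceramidase cuts ceramide to sphingosine. In skeletal tissue, loss of Smpd3 in mice is known for poorly mineralised cartilage and bone, and changes in SGMS2 are known in people with bone fragility. Phosphocholine is in turn a substrate of Phospho1, a phosphatase of mineralising vesicles.

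Sequences before start sites of both synthase genes are shown because Sgms1 and Sgms2 had different zone patterns. RefSeq promoter windows, of 250 bases before to 50 bases after a start site on GRCm38.p6, were found for 6 of the 8 genes, with 4 windows for Sgms1 and 6 for Sgms2. Printed are the most upstream window of each synthase, which for Sgms1 lies at a start that GENCODE marks as principal, and the Sgms2 window nearest to such a start, 25 bases from it. Capitals mark matches on either strand to a RUNX core (TGTGGT), a SOX core (ACAATG), an Sp1 box (GGGCGG) or a TATA box (TATAAA). The most upstream Sgms2 window, chr3:131491394-131491693 on the minus strand, lies 146510 bases from the nearest principal start and held 1 CpG, 1 RUNX core and 1 SOX core, which do not overlap. The Sgms2 window chr3:131344859-131345158, on the same strand, held 5 CpG and none of the motifs. The Sgms1 window chr19:32388463-32388762, also on the minus strand, held 28 CpG and 1 Sp1 box.
Sgms2, most upstream start: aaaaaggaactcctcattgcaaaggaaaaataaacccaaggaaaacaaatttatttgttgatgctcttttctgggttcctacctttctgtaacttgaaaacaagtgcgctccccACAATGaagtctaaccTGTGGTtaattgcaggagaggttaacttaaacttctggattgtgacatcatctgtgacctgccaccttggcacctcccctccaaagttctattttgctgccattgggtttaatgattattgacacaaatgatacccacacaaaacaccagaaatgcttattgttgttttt
Sgms2, nearest principal start: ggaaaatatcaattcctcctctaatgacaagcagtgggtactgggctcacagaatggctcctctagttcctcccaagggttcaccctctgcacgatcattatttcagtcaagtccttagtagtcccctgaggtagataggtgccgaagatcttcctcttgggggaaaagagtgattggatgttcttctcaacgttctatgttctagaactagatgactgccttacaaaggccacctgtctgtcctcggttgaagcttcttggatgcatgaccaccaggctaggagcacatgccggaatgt
Sgms1, most upstream start: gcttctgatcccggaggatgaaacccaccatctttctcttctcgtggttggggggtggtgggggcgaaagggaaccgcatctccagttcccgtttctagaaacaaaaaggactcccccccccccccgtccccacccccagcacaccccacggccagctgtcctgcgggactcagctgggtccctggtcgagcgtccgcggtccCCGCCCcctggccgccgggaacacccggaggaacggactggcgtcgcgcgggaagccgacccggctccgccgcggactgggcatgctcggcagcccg
Windows of one gene differed widely: those of Sgms1 held 4 to 51 CpG and those of Sgms2 1 to 44. An Sp1 box was found in 2 of 4 Sgms1 and 3 of 6 Sgms2 windows, a TATA box in 1 and 0, and a RUNX core and a SOX core in 0 Sgms1 windows and in 1 Sgms2 window. Over 32851 windows of the same length in the table, the RUNX core was found in 16.8%, the SOX core in 12.6%, the Sp1 box in 35.7% and the TATA box in 13.6%, and the median CpG count was 7. Which of these starts was used in the captured cells cannot be read from counts per gene, and a match is a description of letters. Sgms2 lies on chromosome 3 from 131318985 to 131491411 and Sgms1 on chromosome 19 from 32122727 to 32389714, both on the minus strand (GRCm38).

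Smpd3 and Sgms2 were the most abundant members outside the resting zone, as levels per kilobase of exon. In P28 proliferative sums Smpd3 stood at 536 ± 132 CPM per kb and Sgms2 at 192 ± 82.3 (SD, n = 3 animals), while the other members had group means of at most 11.1 CPM per kb. In P28 hypertrophic sums the values were 194 ± 153 for Smpd3 and 147 ± 94.2 for Sgms2, and at most 8.84 for the others. At P2 the hypertrophic means were 111 ± 101 and 55.7 ± 72.5 CPM per kb (SD, n = 4), with Smpd2 next at 8.49 ± 12.4. The SDs of Sgms2 at P2 exceed its means, so that its place against the next genes does not hold in every animal. In the resting zone Smpd3 was highest too, at 12.7 ± 2.47 CPM per kb at P2. Sgms2 stood at rank 7 of 8 there, at 1.72 ± 2.42, and in P28 ethanol sums, but at rank 2 in xylene resting sums, with 1.30 and 22.8 CPM per kb in animals D and E.

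**Figure D1:**
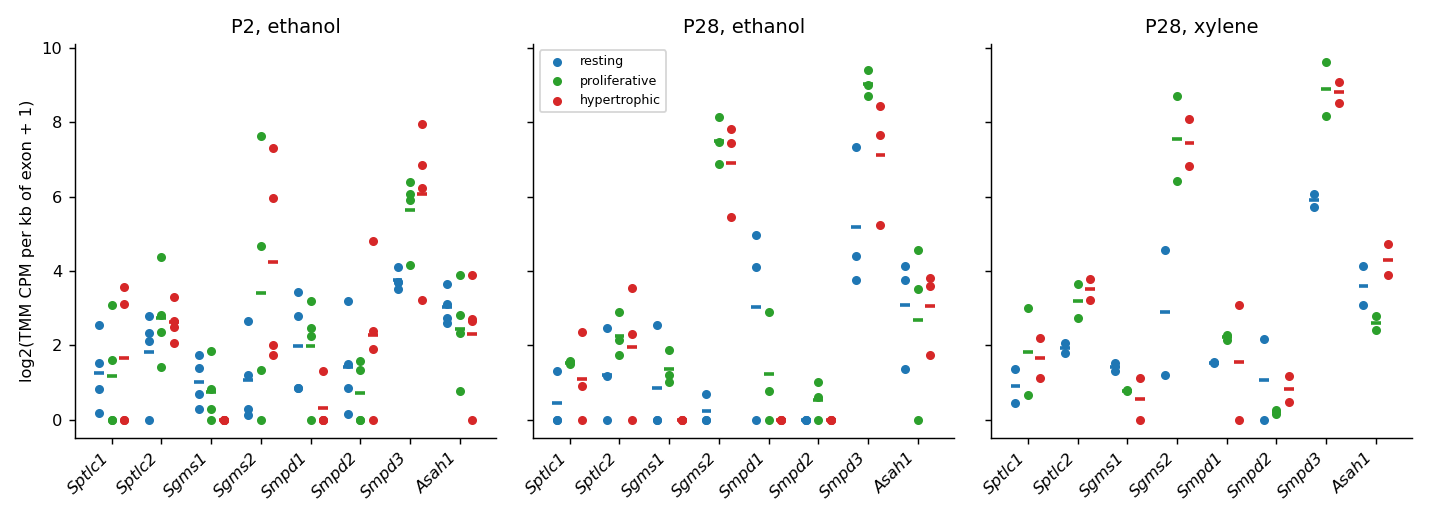
Levels of the 8 enzymes per kilobase of exon, as log2(TMM CPM per kb + 1) on the vertical axis, in P2 ethanol, P28 ethanol and P28 xylene sums. Each point is 1 animal, colours are zones and short lines are means of the log2 values; outside the resting zone Smpd3 and Sgms2 reach levels that no other member reaches, with Smpd3 means of 536 and Sgms2 means of 192 CPM per kb in P28 ethanol proliferative sums.

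Smpd3 (GRCm38 chromosome 8, 106252548 to 106337988, minus strand) encodes the neutral sphingomyelinase of the inner plasma membrane and Golgi. At P2 its level was 84.8, 54.5, 63.2 and 63.0 CPM in the resting sums of animals A, D, F and G. In the proliferative sums of A, D, E and G it was 438, 308, 88.1 and 345 CPM. In the hypertrophic sums of A, C, D and G it was 598, 43.3, 392 and 1294 CPM. Every P2 resting value was below every proliferative value, while the hypertrophic range, opened downwards by animal C with 3 counts, overlapped both. Between zones of the same animal, from the hypertrophic to the resting zone Smpd3 fell by 3.40 ± 0.71 on the log2 scale (edgeR quasi-likelihood test, Benjamini-Hochberg adjusted p = 0.000229), lower in 3 of 3 animals. Against the proliferative zone the resting value was -2.44 ± 0.68 (adjusted p = 0.087), lower in 3 of 3 animals, and the hypertrophic value was 0.96 ± 0.66 (adjusted p = 0.565). Without P2 animal G the resting against hypertrophic difference was -2.87 (adjusted p = 0.0945), and with a library minimum of 50000 counts it was -2.17 (adjusted p = 0.121), neither past the threshold. The resting against proliferative difference passed without P28 animal D, which shares the estimate of spread, at -2.50 (adjusted p = 0.0103). Other measures moved with the zones. The 6 osteoblast and osteocyte markers summed to 246 to 999 CPM in P2 hypertrophic sums, against 5.22 to 253 in proliferative and 10.8 to 552 in resting ones, and the 3 red cell markers to 14.8 to 721 CPM, against at most 23.3 and 28. Perichondrial and fibroblast markers summed to 651 to 4621 CPM in P2 resting sums, against 136 to 658 in proliferative and 72.1 to 333 in hypertrophic ones. P2 hypertrophic sums held 3372 to 8967 detected genes and resting sums 8480 to 11330. Their part in the P2 differences of Smpd3 and of Sgms2 was not tested.

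At P28 in ethanol sections the Smpd3 level was 106, 65.9 and 847 CPM in the resting sums of animals A, B and D. It was 2200, 2658 and 3556 CPM in the proliferative sums and 193, 1061 and 1796 CPM in the hypertrophic sums of the same animals. All resting values lay below all proliferative values, and animal D was the highest in each zone. These P28 values led to the choice of the gene and carry no test; the fitted differences were -3.81 ± 0.74 for resting against proliferative, -1.92 ± 0.68 for hypertrophic against proliferative and -1.89 ± 0.70 for resting against hypertrophic.

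The xylene sections repeated the comparison on other sections, with deeper resting sums of 1501478 counts in animal D and 631447 in animal E. Ethanol sums of animal D took part in the choice of Smpd3 and Sgms2, so that only animal E lies outside that choice. The Smpd3 level was 274 and 345 CPM in resting, 1495 and 4130 in proliferative, and 1918 and 2836 in hypertrophic sums of D and E. Resting values lay below all others, and the proliferative and hypertrophic ranges overlapped. From proliferative to resting Smpd3 fell by 3.04 ± 0.63 (edgeR quasi-likelihood test, Benjamini-Hochberg adjusted p = 0.00659) and from hypertrophic to resting it fell by 2.91 ± 0.63 (adjusted p = 0.00292), lower in 2 of 2 animals each. Hypertrophic against proliferative gave -0.13 ± 0.59 (adjusted p = 0.996). The fit left 2 residual degrees of freedom. The p-values of these 2 Smpd3 calls rest mostly on a spread shared over genes, and little on that of Smpd3 between the 2 animals. Without the replicate block the adjusted p were 0.176 and 0.0733 with the same test. Osteoblast and osteocyte markers summed to 26887 CPM in the hypertrophic sum of D and to 444 in that of E. In these sums Smpd3 stood at 1918 CPM in D and 2836 in E, and Sgms2 at 1680 in D and 702 in E. A part of osteoblasts and osteocytes in these levels was not tested. Perichondrial and fibroblast markers summed to 336 to 605 CPM in xylene resting, 857 to 1967 in proliferative and 1122 to 16107 in hypertrophic sums, and their part in the lower resting levels of Smpd3 and Sgms2 was not tested.

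Sgms2 encodes the sphingomyelin synthase of the plasma membrane. At P2 its resting level was 8.20, 32.7, 1.36 and 0.54 CPM in animals A, D, F and G, from 3, 36, 3 and 3 counts. The proliferative values of A, D, E and G were 0, 153, 1234 and 9.52 CPM. The hypertrophic values of A, C, D and G were 19.0, 14.4, 379 and 974 CPM, from 2, 1, 154 and 2038 counts. The proliferative values spanned the range of the other zones, and in animal A no zone held more than 3 counts. The highest proliferative value came from animal E, whose other zones did not reach the minimum depth.

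Within P2 animals, Sgms2 rose from the proliferative to the hypertrophic zone by 4.25 ± 1.01 (edgeR quasi-likelihood test, Benjamini-Hochberg adjusted p = 0.00351), higher in 3 of 3 animals. From the hypertrophic to the resting zone it fell by 5.61 ± 1.14 (adjusted p = 0.000147), lower in 3 of 3 animals. Resting against proliferative was -1.36 ± 0.96 (adjusted p = 1), lower in 2 of 3. These calls rest on P2 animal G: without it the first was 1.65 (adjusted p = 0.756) and the second -2.52 (adjusted p = 0.529). Without the block, which lets animal E count, hypertrophic against proliferative was 0.03 (adjusted p = 0.995) and resting against hypertrophic -5.06 (adjusted p = 0.130). Without P2 animal D resting against hypertrophic was -6.03 (adjusted p = 0.0603), and hypertrophic against proliferative was 4.25 with RLE scaling (adjusted p = 0.117) and 1.56 with a library minimum of 50000 counts (adjusted p = 0.593). With xylene sums in the fit the P2 values were 4.29 and -5.71 (adjusted p = 0.362 and 0.219).

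In P28 ethanol sections the fitted differences of Sgms2 between resting and other zones were larger than at P2, on 1 resting count. In xylene sections resting against hypertrophic was -5.26, beside -5.61 in ethanol sections at P2. Ethanol resting sums held 0, 0 and 3.89 CPM of Sgms2 in animals A, B and D, which is 1 count in all of 504424. Proliferative sums held 1107, 1746 and 732 CPM and hypertrophic sums 265, 1083 and 1402 CPM. All resting values lay below all others, and proliferative and hypertrophic ranges overlapped. On the TMM scale a count of 0 allows up to 15.9 CPM in animal A and 15.2 in animal B. A shallower resting library of B, under the minimum, held 5 counts. The pooled ratio of resting to proliferative was 0.00117, from 1 resting count. The fitted differences were -9.73 ± 1.20 against proliferative and -9.05 ± 1.17 against hypertrophic, with no test. Both resting sums of the first deposit set, A and B, held 0 counts, so that no fitted difference is given for that set alone. The resting sum of animal A also held 8974 CPM of the prehypertrophic and hypertrophic markers, more than the 7360 CPM of its proliferative sum, with Sgms2 at 0 counts.

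In xylene sections Sgms2 stood at 8.07 and 142 CPM in the resting sums of D and E, at 526 and 2578 CPM in proliferative and at 1680 and 702 CPM in hypertrophic sums. Resting values were again the lowest, and now from 13 and 109 counts. Resting against proliferative was -4.68 ± 1.12 (edgeR quasi-likelihood test, Benjamini-Hochberg adjusted p = 0.202) and resting against hypertrophic -5.26 ± 1.26 (adjusted p = 0.0833), neither past the threshold, each lower in 2 of 2 animals. Without a minimum depth the second was -5.15 (adjusted p = 0.0441). Hypertrophic against proliferative was 0.58 ± 1.05 (adjusted p = 0.996), with D higher and E lower. Single libraries of 1 animal differed widely: the 3 proliferative xylene libraries of D ran from 9.25 to 1140 CPM.

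**Figure D2:**
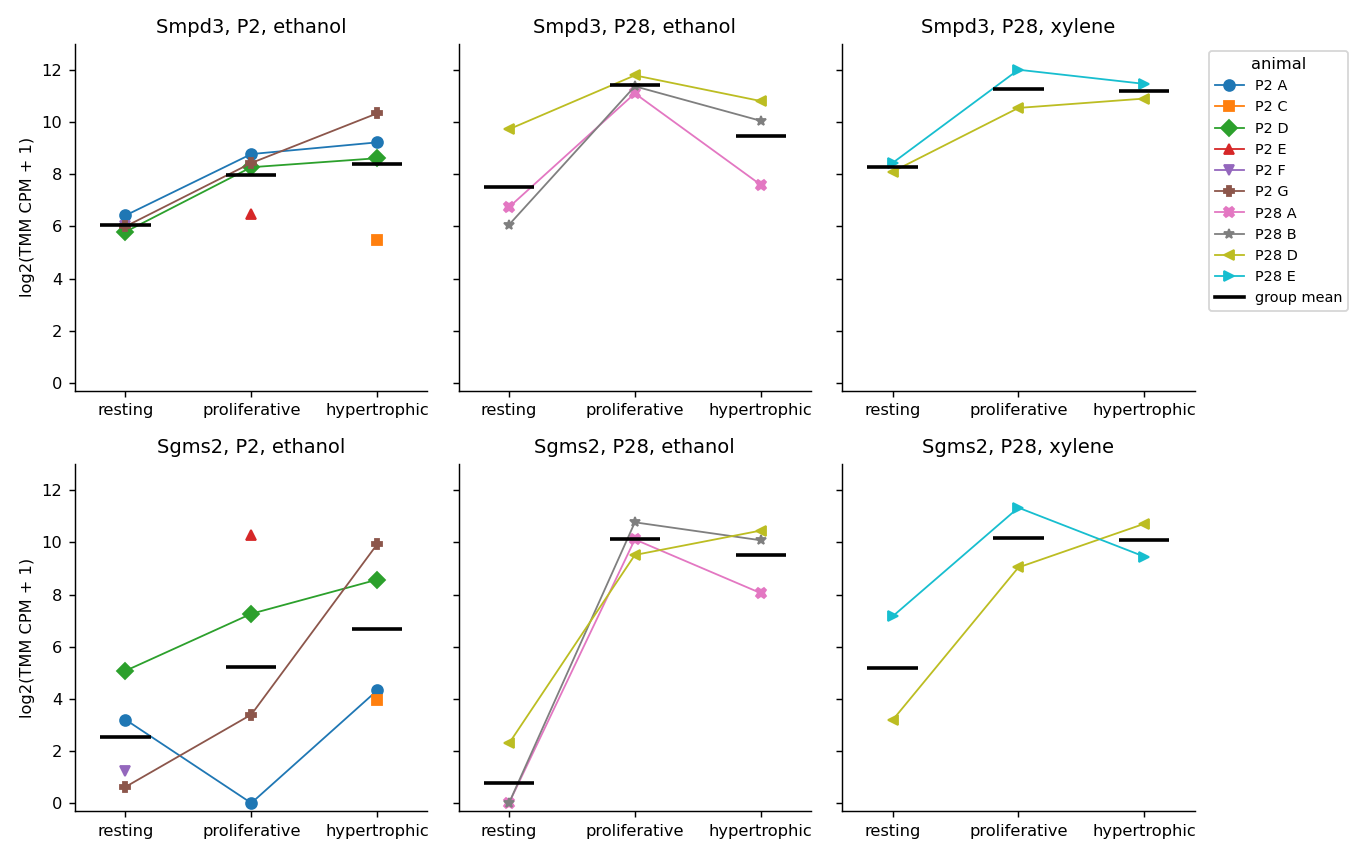
Smpd3 (upper row) and Sgms2 (lower row) by zone, as log2(TMM CPM + 1) on the vertical axis, at P2 and P28 in ethanol sections and at P28 in xylene sections. Points are sums per animal, lines join zones of 1 animal and black bars are group means of the log2 values. On this scale the resting zone is lowest for Smpd3 in every joined animal. The same is seen for Sgms2 in every joined animal except P2 A, which held 0 to 3 counts per zone.

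Libraries kept out of the fits extend the description. In the P3 animal, whose libraries held 2182195 to 2687484 counts, Smpd3 had 12, 1158 and 3580 counts in the resting, proliferative and hypertrophic zones. Sgms2 had 1, 662 and 2818 counts there, and Sgms1 60, 3 and 0. Adding this animal to those of P2, a choice made after seeing the data, gave Smpd3 -2.94 in resting against proliferative (edgeR quasi-likelihood test, adjusted p = 0.00557). The labels of the P3 animal and of P2 animal G differ by 1 digit and a side, so that they may not be separate animals. With the P3 animal added, the P2 differences of Sgms2 no longer passed, at 3.57 in hypertrophic against proliferative and -6.48 in resting against hypertrophic (adjusted p = 0.332 and 0.114). With every library of every animal and fixation summed, however shallow, Smpd3 was lower in the resting than in the proliferative zone in 12 of 14 sets and higher in 1. Sgms2 was lower there in 10 of 14 and higher in 3. Against the hypertrophic zone, resting Smpd3 was lower in 8 sets and higher in 4, and resting Sgms2 lower in 9 and higher in 4. P2 animal B, at 8784 to 45212 counts a zone, held 0 of both. These sets also take in the fitted libraries, among them the P28 ethanol ones that led to the choice of Smpd3 and Sgms2. P28 animal D is counted separately for each fixation. In P28 animal C the proliferative zone held 2 counts of Smpd3 of 872. The tally is a description and adds no separate support.

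**Figure D3:**
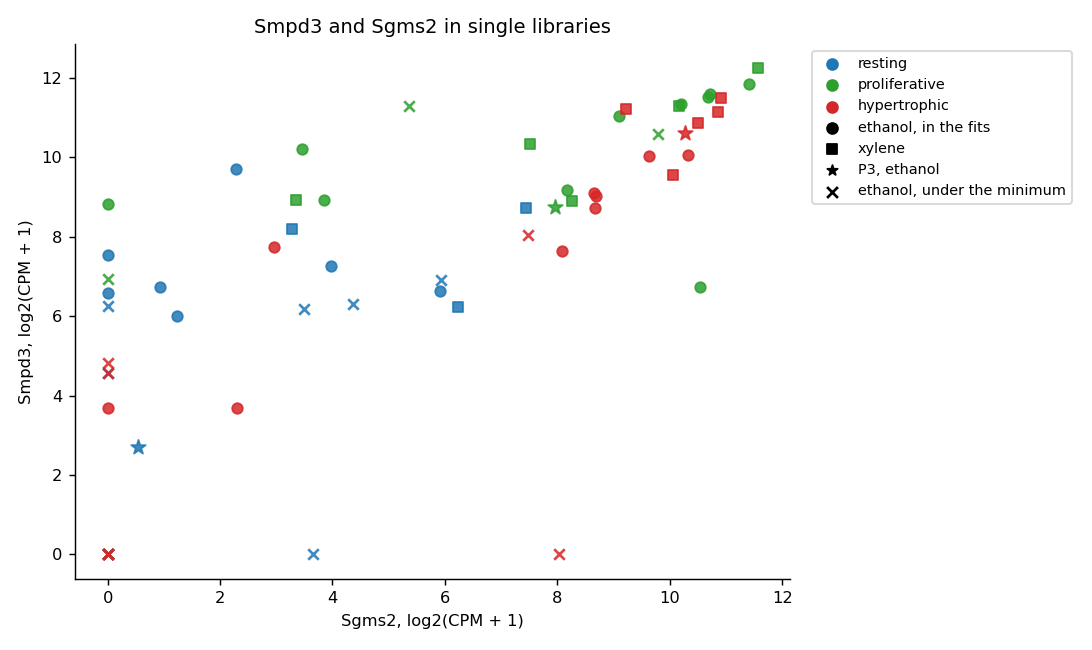
Smpd3 (vertical) against Sgms2 (horizontal) in the 62 libraries with at least 10000 counts, each as log2(CPM + 1) over the library total. Colours are zones and symbols mark ethanol libraries in the fits, xylene libraries, the P3 animal and ethanol libraries under the minimum; resting libraries reach at most 173 CPM of Sgms2 and 838 CPM of Smpd3, while proliferative and hypertrophic libraries run from 0 of Sgms2 to 3031 CPM.

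Sgms1, the sphingomyelin synthase of the Golgi, followed another pattern. It had 0 counts in all 18 ethanol hypertrophic libraries, P3 included, of 8787109 counts. In the P2 sums it had 9, 19, 5 and 36 counts in the resting zones of A, D, F and G, 4, 8, 0 and 8 in the proliferative zones of A, D, E and G, and 0 in the hypertrophic zones. Against a floor of 3 counts over the group, on the TMM scale, its P2 resting level was 6.64-fold the hypertrophic floor, and 1.74-fold without animal G. Such values take the counts of the higher zone as exact and are no lower limits. At P28 proliferative sums held 12, 12 and 5 counts in A, B and D, 4.64-fold the hypertrophic floor on the same scale, and 2.72-fold without animal D. Resting sums at P28 held 0, 10 and 0 counts in A, B and D, so that all of these came from animal B. The fitted differences did not pass: hypertrophic against proliferative had adjusted p = 0.288 at P2 and 0.308 at P28, and resting against hypertrophic 0.161 and 0.430 (edgeR quasi-likelihood test, Benjamini-Hochberg). With the P3 animal in the fit, resting against hypertrophic at P2 passed at 6.69 (adjusted p = 0.0361). In xylene sections the hypertrophic sum of animal D held 78 counts and that of E 0, so that a hypertrophic zone at 0 was not seen in every section.

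As a share of both synthases per kilobase, Sgms2 made up 100% in all 7 ethanol hypertrophic sums, which for P2 animals A and C is 2 counts and 1 count. It made up 98.5 to 99.5% in P28 proliferative sums and 99.1 to 99.8% in xylene ones. In P2 resting sums it made up 36.1, 76.2, 50.5 and 12.3% in A, D, F and G, and in xylene resting sums 40.7% in D and 93.9% in E. In P28 ethanol resting sums it made up 0% in B and 100% in D, on 10 counts of Sgms1 and 1 of Sgms2, while A held neither. The P2 proliferative shares of 0, 96.9, 100 and 86.8% in A, D, E and G spanned the whole range, with 4 counts of both genes together in A.

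**Figure D4:**
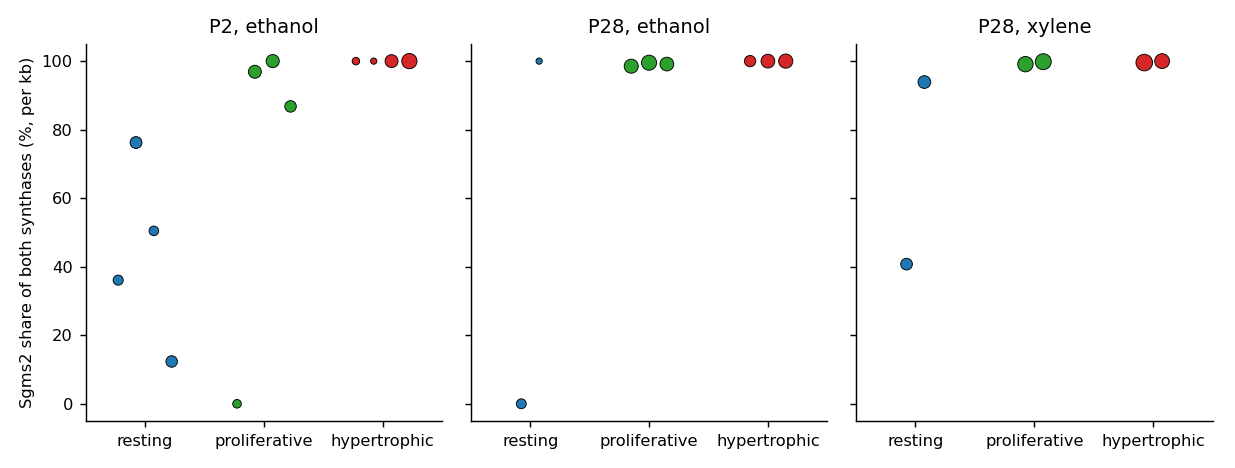
Share of Sgms2 in the summed level of Sgms1 and Sgms2 per kilobase of exon, in percent, by zone. Each circle is the sum of 1 animal, larger circles rest on more counts of both genes, and P28 animal A resting, with 0 counts, is left out; all hypertrophic shares are at 99.6% or above, and P2 resting shares run from 12.3 to 76.2%.

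The other sphingomyelinases were low. Smpd1, the acid sphingomyelinase of lysosomes, had 1, 36, 6 and 111 counts in the P2 resting sums of A, D, F and G and 0, 0, 2 and 0 in the hypertrophic sums of A, C, D and G. At P28 it had 19, 0 and 14 counts in resting, 1, 19 and 0 in proliferative and 0, 0 and 0 in hypertrophic sums of A, B and D. Its P28 resting against hypertrophic difference of 9.12 ± 3.10 was the nearest of the 6 other members to a call and did not pass (edgeR quasi-likelihood test, Benjamini-Hochberg adjusted p = 0.107). Against the floor of 3 counts over the group, on the TMM scale, P28 resting was 14.5-fold the hypertrophic floor, and 7.30-fold without animal D. These too are no lower limits. In xylene sections the hypertrophic sums held 159 and 0 counts in D and E. Smpd2, another neutral sphingomyelinase, was too low for a test in every fit. Of its 259 P2 hypertrophic counts, 252 came from animal G, and at P28 it had 5 counts in proliferative and 0 in resting and hypertrophic sums. Smpd2 shares 905 exon bases with Mical1 on the opposite strand and Smpd3 247 with Prmt7, and SMART-seq2 does not mark strand. Prmt7 had 317, 129 and 6 counts in P2 resting, proliferative and hypertrophic sums, where Smpd3 had 583, 1497 and 2933.

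Ceramide synthesis and breakdown held no called gene. Sptlc2, a catalytic subunit of serine palmitoyltransferase, was at 27.1 ± 20.1, 63.9 ± 65.1 and 44.6 ± 19.3 CPM in P2 resting, proliferative and hypertrophic sums (SD, n = 4), and at 15.7 ± 19.1, 33.0 ± 17.1 and 39.8 ± 44.2 at P28 (SD, n = 3). The groups overlapped in both ages, and the P2 proliferative mean rests on 518 of 572 counts from animal G. In xylene sections it was 19.9 and 26.1 CPM in resting against 45.9 and 93.3 in proliferative and 104 and 67.8 in hypertrophic sums of D and E, which do not overlap with resting (adjusted p = 0.869 and 0.592, edgeR quasi-likelihood test). Its partner Sptlc1 had at most 38.7 CPM in any sum and 0 counts in 7 of the 21 ethanol sums. Asah1, the acid ceramidase of lysosomes, was at 25.3 ± 9.77, 20.8 ± 18.8 and 21.0 ± 19.3 CPM at P2 and at 34.6 ± 26.2, 37.5 ± 38.8 and 30.0 ± 19.3 at P28 in the same order. Its zone differences were at most 0.57 in size in ethanol fits, with standard errors of 1.47 to 1.79, so that changes of several fold could not be seen at this depth.

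Read over all members, calls were few. Smpd2 was left out by the filter on low counts, so that 7 of 8 were tested between zones. At P2, 0 of 7 were called in resting against proliferative, where 0.259% of 6958 genes were called; 1 of 7 in hypertrophic against proliferative (2.31%); and 2 of 7 in resting against hypertrophic (3.77%). The P28 ethanol counts follow from the choice of Sgms2 and Smpd3 on those sums, and nothing is read from them: 2 of 7 in resting against proliferative (0.561%), 0 in hypertrophic against proliferative (1.12%) and 1 in resting against hypertrophic (1.77%). In xylene sections 1 of 7 was called in resting against proliferative (0.34%), 0 in hypertrophic against proliferative (0.453%) and 1 in resting against hypertrophic (1.46%). Every call of a member was of Sgms2 or Smpd3. The other members gave 52 tests over zones and ages, of which 0 were called and 4 (7.69%) had an unadjusted p under 0.05 with edgeR, beside 9.84% over all genes tested in those 12 comparisons. DESeq2 called 0 of them in the ethanol comparisons. The median log2 difference of the 7 in resting against hypertrophic was -0.76 at P2 beside 0.52 for all genes tested, and -1.48 beside -0.14 in xylene sections. In hypertrophic against proliferative at P2 it was 0.57 beside -0.36, and in xylene sections -0.09 beside -0.06. In resting against proliferative it was 0.24 beside 0.15 at P2 and -1.57 beside -0.13 in xylene sections. The 7 include Sgms2 and Smpd3, and a shift of the members as a set was not tested.

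**Figure D5:**
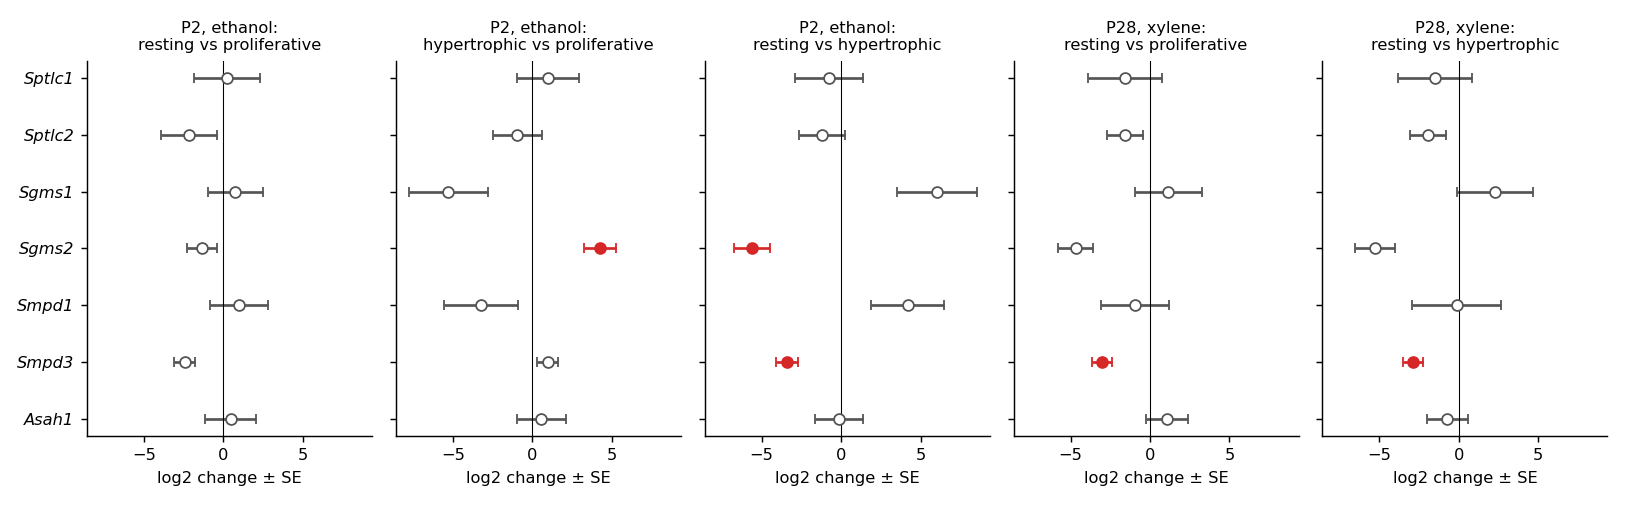
Log2 differences between zones (horizontal axis) with standard errors for the 7 tested members at P2 in ethanol sections and at P28 in xylene sections. Filled red points passed an adjusted p of 0.05 and open points did not; the filled points belong to Sgms2 and Smpd3, from -5.61 to 4.25.

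Age was compared within each zone between animals, with a deposit-set term. In the proliferative zone Smpd3 was 3.11 ± 0.56 higher at P28 than at P2, on group means of 2805 ± 690 (SD, n = 3) and 295 ± 148 CPM (SD, n = 4) that did not overlap. In the resting zone it was 2.10 ± 1.0 higher, a value that rests on P28 animal D and was 0.30 without it. Sgms2 differed by 2.49 ± 2.52 in the proliferative zone, and by 4.78 without P2 animal E, a single library. These P28 sums took part in the choice of the genes, so no test is given. In the hypertrophic zone, where Smpd3 differed by 0.72 ± 0.78 and Sgms2 by 1.79 ± 0.84, neither passed (edgeR quasi-likelihood test, Benjamini-Hochberg adjusted p = 0.998 and 0.899), and 0 of 3 members tested were called, with 0.102% of all genes. In the resting zone 0 of 4 members were called, with 0.872% of genes, and the proliferative count of 1 of 5, beside 0.679%, is that of Smpd3, from which nothing is read for the same reason. The resting against proliferative difference of Sgms2 was more negative at P28 than at P2, with a fitted difference between ages of -8.38 ± 1.49 on the log2 scale, given without a test.

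The rest of sphingolipid metabolism showed no called gene. Of 38 listed genes of ceramide synthesis, transport, glycosylation and breakdown, 21 passed the filter in the ethanol zone fit and 27 in the xylene fit, and 0 were called in any zone or age comparison with edgeR. Of their 229 tests, 18 (7.86%) had an unadjusted p under 0.05, beside 9.84% of all genes tested in the same comparisons. DESeq2, run on the ethanol comparisons, called 1, Ormdl3 in resting against hypertrophic at P2. The nearest was Asah2, the neutral ceramidase, at 7.60 ± 2.49 in resting against hypertrophic at P2 (edgeR quasi-likelihood test, Benjamini-Hochberg adjusted p = 0.0556), on 198 resting and 0 hypertrophic counts. Of 7 sphingosine 1-phosphate transporters and receptors, 0 passed the filter in ethanol sums. Of 20 genes that handle phosphocholine and choline, 12 were tested in ethanol sums and 18 in xylene ones. Alpl, the tissue-nonspecific alkaline phosphatase that frees phosphate for mineral, rose from proliferative to hypertrophic by 6.89 ± 0.90 at P2 and by 2.94 ± 0.76 at P28 (adjusted p = 3.16e-11 and 0.0155). From proliferative to resting Alpl fell by 4.96 ± 1.03 at P2 and fell by 2.85 ± 0.76 at P28 (adjusted p = 0.00153 and 0.0343), and it was 4.87 ± 1.17 higher at P28 than at P2 in the proliferative zone (adjusted p = 0.00805). Enpp2, the lysophospholipase D autotaxin that releases choline, rose by 4.89 ± 1.10 at P2 (adjusted p = 0.00139) and stood at 2.94 ± 0.90 at P28 (adjusted p = 0.0762). From hypertrophic to resting Enpp2 fell by 5.93 ± 1.15 at P2, fell by 3.52 ± 0.91 at P28 and fell by 4.51 ± 0.84 in xylene sections (adjusted p = 4.14e-05, 0.0117 and 0.000483). From hypertrophic to resting sums at P28, Gpcpd1, which cleaves glycerophosphocholine, fell by 4.99 ± 1.41 (adjusted p = 0.0313). In resting against hypertrophic, edgeR called 2 genes of this list at P2, 3 at P28 and 2 in xylene sections. Alpl was among those called at P28, and DESeq2 called Alpl in this comparison at both ages. The other 9 genes tested in ethanol sums were called in no zone or age comparison with edgeR. DESeq2 lost the P28 calls of Alpl in resting against proliferative and of Enpp2 in resting against hypertrophic, and added Gpcpd1 in hypertrophic against proliferative at P28 and Slc44a2, a choline transporter-like gene, in resting against hypertrophic at P2. Phospho1 had 0 counts in every resting sum, and 16 and 8 counts in P2 hypertrophic and proliferative sums and 4 and 13 at P28, too few for a test. In xylene sections it had 72 hypertrophic, 27 proliferative and 0 resting counts.

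Genes most like Smpd3 over the 21 ethanol sums, by Pearson's r of log2(TMM CPM + 1), were the link protein gene Hapln1 (r = 0.853), the R-spondin gene Rspo4 (0.827), 3110079O15Rik (0.825), Ptp4a3 (0.796) and Fxyd2 (0.782). Those most like Sgms2 were the adaptor gene Grb14 (0.790), Rab31 (0.759), the secreted glycoprotein gene Stc2 (0.759), Hapln1 (0.757) and 1700113A16Rik (0.744). Smpd3 and Sgms2 had r = 0.632. These values describe the 21 sums, which share animals, zones and depth, and carry no p.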

How the data were processed

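Per the labels' protocols, cells of each growth plate zone were laser captured from frozen sections, lysed without RNA extraction and made into libraries by SMART-seq2 with Tn5 tagmentation. Deposited values are counts of reads per gene symbol, raw, in 100 columns of 1 table. The tools named in the submitters' processing notes are STAR 2.5.2b, cutadapt, Subread and featureCounts 1.5.3, with build mm10; neither strand nor multi-mapping settings are given in sources used here. Columns of one title (32 libraries with 2 columns, chi-square at most 1.031 per gene over pairs with at least 100 counted genes) were summed to 68 libraries, and libraries with at least 100000 counts were summed per animal and zone.

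Counts were tested with edgeR 4.0.16 in R 4.3.3 (TMM, filterByExpr, robust quasi-likelihood F-test, Benjamini-Hochberg over all genes tested, threshold 0.05). Zone differences came from 1 fit with the animal as a block (8 residual degrees of freedom), age differences from 1 fit per zone with a deposit-set term (4), and xylene differences from a fit of their own (2). Zones of one animal share it per the labels; deviations from group means correlated between zones of an animal by -0.002 to 0.185. Standard errors are the log2 change over the square root of F. P-values measure spread between animals as labelled, moderated over genes. In the zone fit this moderation was strong. The p-values of the P2 calls lie near normal tail values of the log2 change over its standard error. They rest mostly on a spread shared over genes, and little on that of Sgms2 or Smpd3 between animals. The calls of Smpd3 in the xylene fit rest mostly on such a shared spread as well. Levels are TMM CPM, per kilobase of exon union where stated. Floors (3 counts in place of 0) cover counting error of the zone at 0 only, and take the counts of the other zone as exact. DESeq2 1.42.0, other scalings, filters and left-out animals were alternatives. The zone fit was also run on counts simulated with large known changes in well-counted genes, with another filter. Those counts had the same spread for all genes and no differences between animals. That run was a check of the code and does not bear on low members.

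The members and gene lists were chosen with earlier results of these data known. All 8 members are named, with every listed gene past the threshold and the 5 genes most like Smpd3 and like Sgms2; Asah2 and Phospho1 were added after their values were seen. Marker lists of other cell types were summed as checks.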

Additional observations from a re-analysis of the deposited data

Results flagged for a closer look

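Outliers were sought in the 24 groups of 4 P2 sums, and 3 values stood apart from the other animals of their group by more than Dixon's 95% critical value. For normally spread values chance gives about 1 in 20. That rate does not hold for groups near 0 counts, where 1 value above 0 beside 0 in all others is always flagged. Sgms2 was at 1234 CPM in the proliferative sum of P2 animal E, against at most 153 in the other 3. Smpd1 was at 4.93 CPM in the hypertrophic sum of P2 animal D, from 2 counts, against 0 in the other 3. Smpd2 was at 120 CPM in the hypertrophic sum of P2 animal G, from 252 counts, against at most 19.0 in the other 3. The resting against proliferative difference of Sgms2 differed between ages by -8.38 on the log2 scale; the P28 part of it had been chosen from these sums.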

How the results depend on the processing

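Of the 180 recounts of called members, 151 gave the same count as first computed and 29 another; of 1067 recomputed member values 0 reversed a call, and 43 uncalled values changed sign. With RLE scaling hypertrophic against proliferative at P2 fell from 1 called member to 0. With a library minimum of 50000 counts it fell to 0, resting against hypertrophic at P2 and resting against proliferative at P28 each from 2 to 1, and age in the proliferative zone from 1 to 0. Without the replicate block hypertrophic against proliferative at P2 had 0, resting against hypertrophic 1 at P2 and 0 at P28, resting against proliferative 0 at P28, and the xylene comparisons with the resting zone 0 each. With each label as its own animal resting against proliferative at P2 and hypertrophic against proliferative at P28 rose from 0 to 1. With xylene sums included the counts were 0 and 1 for hypertrophic against proliferative and resting against hypertrophic at P2, and 1 and 2 for resting against proliferative and resting against hypertrophic at P28. Without a minimum the xylene resting against hypertrophic count was 2. With the P3 animal added, chosen after seeing the data, resting against proliferative had 1 at P2 and 1 at P28, hypertrophic against proliferative 0 at P2 and resting against hypertrophic 0 at P28. Leaving out 1 animal gave 0 to 1 for both comparisons with proliferative at P2, 0 to 2 for resting against hypertrophic at P2, 1 to 2 for resting against proliferative at P28 and 1 to 2 for age in the proliferative zone, 2 without P2 animal E. The named animals were P2 D and G and P28 A, B and D. Xylene animals could not be left out in turn, since no residual degrees of freedom remain. The cause of these changes was not tested. DESeq2 changed no count of called members. Over all genes, called counts ran from 5 to 46, 28 to 369 and 54 to 529 in the P2 comparisons (18, 161 and 262 as first computed), 2 to 122, 9 to 200 and 28 to 329 at P28 (39, 78 and 123), 13 to 91, 4 to 54 and 1 to 21 with age in the resting, proliferative and hypertrophic zones (29, 32 and 2), and 5 to 33, 2 to 44 and 38 to 145 in xylene sections (33, 44 and 142), each in the order resting against proliferative, hypertrophic against proliferative and resting against hypertrophic. Shallow resting sums at P28, of 108601 to 260199 counts, limit what can be seen of low members there.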
